A study of Mus musculus with 8 samples.

Results

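The interferon-inducible GTPases described here are 10 mouse genes, namely the guanylate-binding proteins Gbp2, Gbp3, Gbp5, Gbp6, Gbp7 and Gbp9 and the immunity-related GTPases Irgm1, Irgm2, Igtp and Iigp1. They were chosen by name, with earlier results of these data known, and each was found once among the 54532 genes of the deposited RNA-seq table. RNA was sequenced from brain tissue of male C57BL/6 mice on Day 21, and each of 4 groups had 2 libraries. PTS + RS mice received a photothrombotic stroke (light-induced clotting of cortical vessels) plus restraint stress, and RS mice received restraint stress alone. All 4 of these libraries were labelled cortex. The other 4 libraries came from PTS + RS mice that received either RGFP109, at 60 mg/kg subcutaneously once a day, or vehicle (labelled NaCl). For the length of this treatment the paper's methods give 2 weeks and a figure legend gives 21 days. The paper uses RGFP109 as an HDAC3 inhibitor and describes it as selective for both HDAC1 and HDAC3. In both groups of this second experiment replicate 1 was labelled cortex and replicate 2 amygdala. The ages of the sequenced mice were not given in the sources used here, although the paper gives an approximate age for its open-field test. Whether a library held 1 mouse or a pool was not given either. The p-values therefore measure the spread between these libraries, which may be technical. In RGFP109 against vehicle, fitted without a block for the label, that spread also holds the difference between the tissue labels. No unstressed group was sequenced, so the stroke was compared on a background of restraint stress, and RGFP109 on a background of both.

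Interferons are antiviral and immune cytokines that act through receptors, kinases and transcription factors. Interferon-gamma acts mainly through promoter elements called GAS, and type I interferons mainly through elements called ISRE. The guanylate-binding proteins are induced downstream of both, and assemble on the membranes of intracellular pathogens, where they promote lysis and inflammasome activation. Among the immunity-related GTPases, Iigp1 is an effector that coats the vacuoles of parasites. Irgm1, Irgm2 and Igtp are regulators that sit on the cell's own membranes and keep the effectors off them. In brain, microglia, astrocytes and endothelial cells can all induce these genes.

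The positions are on GRCm38. Gbp2 (ENSMUSG00000028270, 142620602 to 142638008), Gbp3 (ENSMUSG00000028268, 142560026 to 142573209), Gbp5 (ENSMUSG00000105504, 142493978 to 142522344) and Gbp7 (ENSMUSG00000040253, 142530342 to 142550149) are neighbours on the plus strand of chromosome 3. Gbp6 (ENSMUSG00000104713, 105270702 to 105293698) and Gbp9 (ENSMUSG00000029298, 105077630 to 105139539) lie on the minus strand of chromosome 5. Igtp (ENSMUSG00000078853, 58199556 to 58207591) and Irgm2 (ENSMUSG00000069874, 58199618 to 58222782) overlap on the plus strand of chromosome 11, and Irgm1 (ENSMUSG00000046879, 48861968 to 48871683) lies on its minus strand. Iigp1 (ENSMUSG00000054072, 60376029 to 60392627) is on the plus strand of chromosome 18.

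Sequence shared with other genes bears on how well each count belongs to its gene. In GENCODE M21 transcripts, 64.5% of the 100-base stretches of Gbp6 also occurred in other genes, above all in Gm43302, Gbp10, Gbp11 and Gbp8. The value for Gbp7 was 10.01%, shared with Gm43802 and Gbp3. Igtp and Irgm2 share 162 exonic bases, which are 8.01% of Igtp and 4.39% of Irgm2. The values were 1.65% for Gbp9, 0.694% for Gbp3 and 0.142% for Gbp5, and no such stretch of Gbp2, Irgm1 or Iigp1 was shared. How reads on shared sequence were counted was not given in the sources used here, so that the level of Gbp6 is uncertain, and those of Gbp7, Igtp and Irgm2 are uncertain to a smaller extent.

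The bases before the start sites show what these genes share at the sequence level, and they come from RefSeq windows on GRCm38.p6. Such windows were matched for 7 of the 10 genes, all but Gbp6, Gbp9 and Iigp1. In the 250 bases before the start site, both strands were searched for the GAS letters TTCNNNGAA and for GAAANNGAA as the core of the ISRE. Of all 32851 RefSeq windows of this length, 7.02% held the first and 7.13% the second. Among these 7 genes, 4 held GAS (Gbp5, Gbp7, Irgm2 and Igtp) and all 7 held the ISRE core. The stretches below are shown because they carry these matches, which are in capitals. They run 5′ to 3′ up to 120 bases before the start site and stop before any exon annotated in GENCODE M21. They cover chr3:142559924-142560025 for Gbp3, chr3:142496814-142496899 for Gbp5, chr3:142530216-142530335 for Gbp7, chr11:58214857-58214976 for Irgm2 and chr11:58199436-58199555 for Igtp, all on the plus strand. The stretches of Gbp5 and Irgm2 lie inside the gene positions given above, before a RefSeq start site within the gene.
Gbp3: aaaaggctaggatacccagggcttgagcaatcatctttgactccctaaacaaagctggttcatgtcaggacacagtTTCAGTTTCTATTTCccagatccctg
Gbp5: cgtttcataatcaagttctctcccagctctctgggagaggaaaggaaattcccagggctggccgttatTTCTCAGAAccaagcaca
Gbp7: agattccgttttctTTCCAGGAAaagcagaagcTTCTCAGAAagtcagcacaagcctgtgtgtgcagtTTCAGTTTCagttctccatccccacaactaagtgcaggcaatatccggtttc
Irgm2: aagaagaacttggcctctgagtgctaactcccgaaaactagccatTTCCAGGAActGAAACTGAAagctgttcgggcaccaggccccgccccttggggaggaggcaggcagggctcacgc
Igtp: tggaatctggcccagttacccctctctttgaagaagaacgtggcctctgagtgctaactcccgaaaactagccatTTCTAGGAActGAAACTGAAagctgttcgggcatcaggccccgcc

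Irgm2 and Igtp carry the same arrangement, a GAS match followed by an ISRE core that begins 11 bases after the first base of GAS. When the windows were shifted by 30 bases to line up these matches, 77 of the 80 bases around the start of GAS were identical, and 134 of 220 bases over the whole overlap. Gbp7 held 2 GAS matches, from -106 and from -87 relative to the start site, and an ISRE core from -52. In Gbp3 a pair of overlapping ISRE cores began at -44 and -38, and the other RefSeq window of Gbp3 held no match. Irgm1 also had a pair of overlapping ISRE cores, from -30 and -24, and Gbp2 had 1 from -58. These matches in Gbp2 and Irgm1 lie in exons of other annotated transcripts, so their bases are not printed. A match describes the letters, and binding was not measured.

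**Figure D1:**
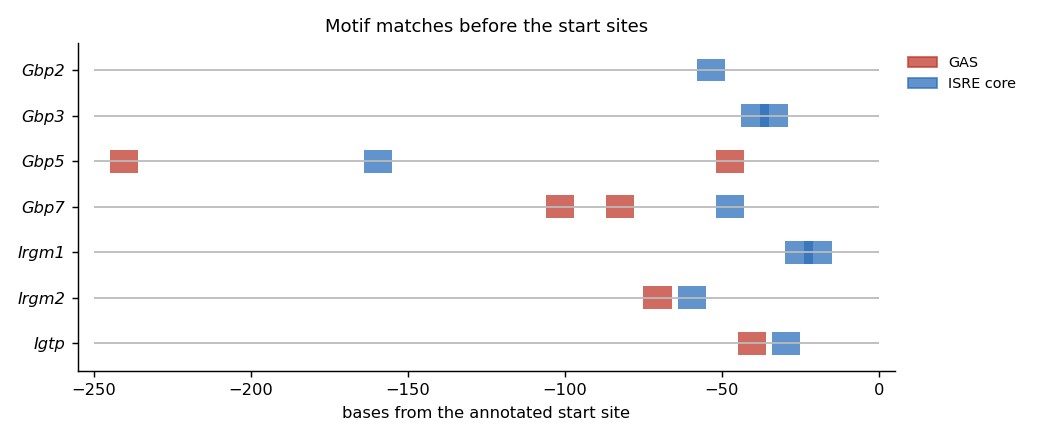
Motif matches in the 250 bases before the start site of the 7 genes with a RefSeq window (for Gbp3, the window with matches). The horizontal axis gives bases from the start site, red boxes are GAS matches and blue boxes ISRE core matches. The nearest match begins between -64 and -24 in every gene, and the order of GAS and ISRE core is the same in Irgm2 and Igtp.

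Each library held between 15902013 and 21712033 counts on genes. Levels are given as CPM, counts divided by a library size scaled by TMM. The 10 GTPases were low to moderate in level, with 3 to 466 counts per gene and library, and all 10 passed the filter on low counts in both tables. The biological coefficient of variation between replicates was 11.4% for PTS + RS and RS and 32.1% for RGFP109 and vehicle. The second value includes the difference between the tissue labels, and was 26.5% with the replicate number as a block. The labelled cortex of the first table held cortical projection neuron genes, with Neurod6 between 109.97 and 175.9 CPM in the 4 libraries. In the second table vehicle replicate 1, labelled cortex, stood apart. Its Neurod6 was 11.7 CPM against 149 in RGFP109 replicate 1 with the same label. The 8 listed cortex markers summed to 327 CPM in it and to 508 CPM in RGFP109 replicate 1. Of these markers, Cux2 (94.4 against 65.1 CPM) and Rasgrf2 (138 against 103 CPM) were higher in vehicle replicate 1, and the others were lower. Cdhr1, an olfactory bulb gene chosen after its values were seen, was 534 CPM there and at most 10.2 CPM in each of the other 7 libraries. The amygdala-labelled libraries held striatal genes, with Drd1 at 49.2 and 49.0 CPM against 6.66 and 4.27 in the cortex-labelled ones. RGFP109 replicate 1 stood apart in its choroid plexus markers, which summed to 2197 CPM. Their sum was 222 CPM in RGFP109 replicate 2 and 144 and 197 CPM in vehicle replicates 1 and 2. Results for RGFP109 that rest on vehicle replicate 1 are also given without it, and the median without RGFP109 replicate 1 is given as well.

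The question of the first comparison was what stroke adds to restraint stress in cortex. All 10 GTPases had a fitted change above 0 in PTS + RS over RS, against 49.7% of the 17581 genes tested, and 0 had one below 0, against 50.3%. Their median log2 fold change was 1.54, or 2.92-fold, beside a median of -0.00153 over all genes tested. In 9 of the 10 both PTS + RS libraries lay above both RS libraries, where 25.7% of all genes did so, and Gbp9 overlapped. A gene was called upregulated at an adjusted p under 0.05 (edgeR's quasi-likelihood test, Benjamini-Hochberg over all genes tested) and a change of 1 or more on the log2 scale. In simulated counts whose dispersion varied from gene to gene this test made more false calls than the adjusted p states, so the calls are less certain than their adjusted p. By this rule Gbp2, Gbp3 and Irgm1 were upregulated, which is 3 of 10 beside 2.12% of all genes, and 0 of 10 were downregulated beside 0.091% of all genes. At an unadjusted p under 0.05, 9 of 10 were higher beside 10.3% of all genes. The genes were chosen with earlier results of these data known, so these counts describe them and do not test the set. These are bulk samples, in which more cells of a type and more RNA per cell cannot be told apart.

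Among the guanylate-binding proteins of chromosome 3, Gbp2, which acts in the caspase-11 inflammasome response to bacterial lipopolysaccharide, was at 15.5 and 8.38 CPM in the PTS + RS libraries and at 3.64 and 3.09 CPM in the RS libraries. The PTS + RS libraries were both higher, and replicate 1 was the highest. The log2 fold change of Gbp2 was 1.82 (standard error, SE, 0.319, edgeR adjusted p of 0.0295), or 3.54-fold. Gbp3, a member of the same cluster, was at 19.1 and 10.5 CPM in PTS + RS and at 3.97 and 4.23 CPM in RS. The groups did not overlap and the RS libraries lay close together. Gbp3 had a log2 fold change of 1.86 (SE 0.300, edgeR adjusted p of 0.0214), or 3.62-fold.

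Gbp5, which is known to promote NLRP3 inflammasome assembly, was at 10.7 and 5.03 CPM in PTS + RS and at 2.37 and 2.398 CPM in RS. Both PTS + RS libraries were higher, and they differed from each other by more than the RS libraries did. Its log2 fold change of 1.72 (SE 0.377) had an adjusted p of 0.0604 in edgeR and was not called. Gbp7, which takes part in bringing NADPH oxidase to pathogen vacuoles, was at 15.7 and 8.26 CPM in PTS + RS and at 5.85 and 5.62 CPM in RS. The groups did not overlap, with a log2 fold change of 1.06 (SE 0.304) and an adjusted p of 0.125 in edgeR.

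The chromosome 5 genes had the 2 largest adjusted p-values of the 10. Gbp6 had 60 and 22 counts in the PTS + RS libraries and 20 and 3 counts in the RS libraries, or 3.502 and 1.32 against 1.10 and 0.189 CPM. PTS + RS replicate 2 and RS replicate 1 nearly met, and the counts of Gbp6 carry the shared sequence given above. Its log2 fold change was 1.85 (SE 0.738, edgeR adjusted p of 0.252), and it ran from 0.97 without PTS + RS replicate 1 to 3.61 without RS replicate 1. Gbp6 was called without PTS + RS replicate 2, at 2.38 (edgeR adjusted p of 0.0252). Gbp9 was at 9.34 and 5.92 CPM in PTS + RS and at 6.01 and 4.23 CPM in RS, so the groups overlapped. Its log2 fold change of 0.57 (SE 0.288, edgeR adjusted p of 0.359) was the smallest of the 10, and Gbp9 was the only one with an unadjusted p above 0.05, at 0.0875.

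Of the regulatory immunity-related GTPases, Irgm1, which is needed for control of autophagy and of the effector GTPases, was at 27.2 and 17.8 CPM in PTS + RS and at 8.94 and 7.95 CPM in RS. The lower PTS + RS library was about as far above RS as the replicates of PTS + RS were apart. Irgm1 had the smallest adjusted p of the 10, with a log2 fold change of 1.41 (SE 0.221, edgeR adjusted p of 0.0189), or 2.66-fold. Irgm2, which restrains guanylate-binding protein and caspase-11 responses, was at 11.4 and 8.38 CPM against 5.35 and 4.98 CPM, with a log2 fold change of 0.94 (SE 0.216, edgeR adjusted p of 0.0690). Its SE was the smallest of the 10, and its change fell short of the fold limit as well.

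Igtp, also called Irgm3, a regulator on the endoplasmic reticulum and lipid droplets, was at 10.9 and 6.10 CPM in PTS + RS and at 3.97 and 3.03 CPM in RS. The groups did not overlap, with a log2 fold change of 1.28 (SE 0.320, edgeR adjusted p of 0.0882). The effector Iigp1 was at 9.86 and 4.13 CPM in PTS + RS and at 1.93 and 2.46 CPM in RS. The PTS + RS libraries differed 2.35-fold (prior count of 2). Its log2 fold change was 1.68 (SE 0.430, edgeR adjusted p of 0.0934).

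**Figure D2:**
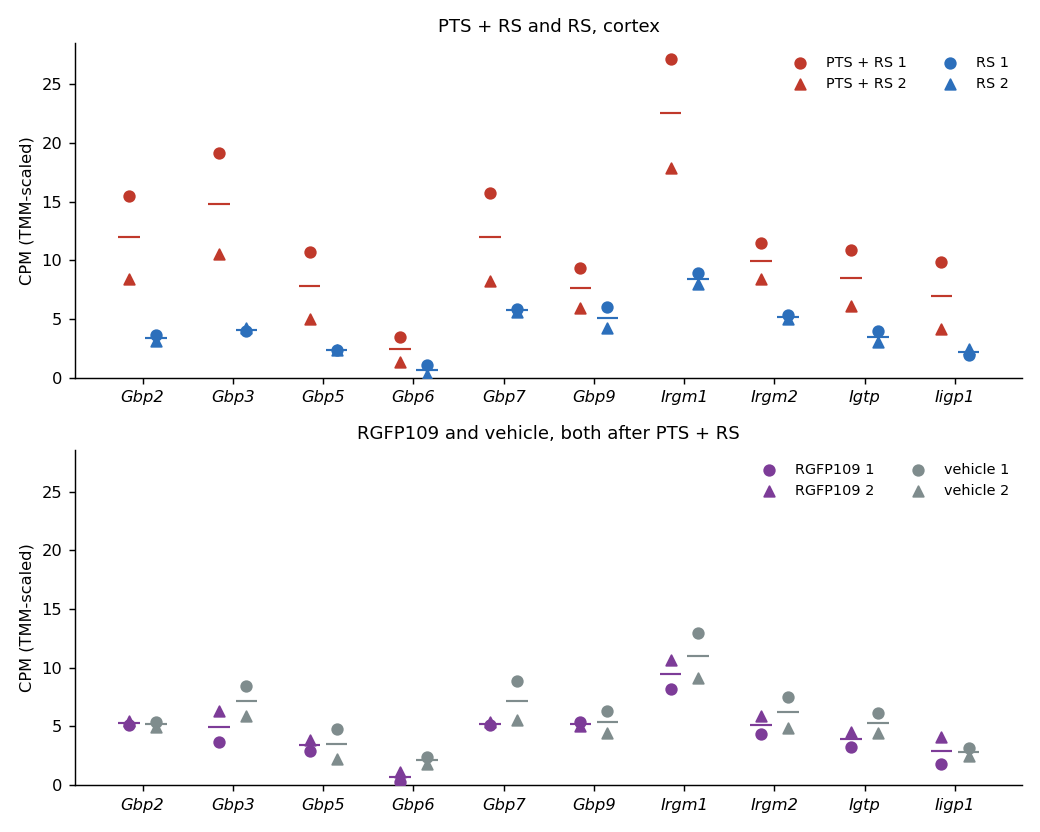
Level of each of the 10 GTPases in every library as TMM-scaled CPM (vertical axis, linear from 0), with PTS + RS and RS above and RGFP109 and vehicle below. Circles are replicate 1, triangles replicate 2 and horizontal bars group means of 2 libraries. PTS + RS replicate 1 is the highest library of its table for every gene, from 3.502 CPM for Gbp6 to 27.2 CPM for Irgm1, and the tables were normalised separately.

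The size of the rise depended on the PTS + RS library. Replicate 1 was above replicate 2 in 10 of 10 GTPases, with a median ratio of 1.83-fold and a range from 1.36-fold (Irgm2) to 2.52-fold (Gbp6), while 51.4% of all genes tested were higher in replicate 1. Between the RS libraries 7 of 10 were higher in replicate 1, with a median ratio of 1.10-fold. Without PTS + RS replicate 1 the median log2 fold change of the 10 genes was 0.94 and 4 were called, beside 2.13% of all genes called higher. Without PTS + RS replicate 2 it was 1.92 and 9 were called, beside 3.41% of all genes. Gbp2, Gbp3 and Irgm1 stayed called with any 1 library left out. Of the other tests run, limma-voom called 1 of the 10 (1.79% of all genes called higher), limma-trend on log2(FPKM + 1) called 0 (1.05%) and DESeq2 called 7 (1.32%). The DESeq2 share is of 30105 genes, since DESeq2 was run without the filter on low counts, and the others are of 17581. As a count, DESeq2 called 397 genes higher and edgeR 373.

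**Figure D3:**
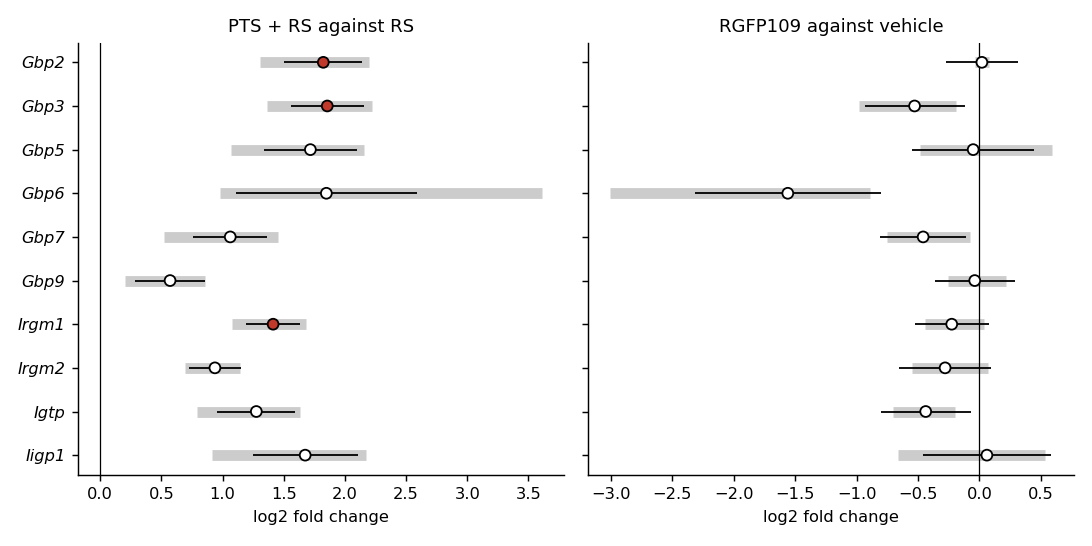
Log2 fold change of each GTPase (points) with its standard error (black lines) from edgeR, for PTS + RS over RS on the left and RGFP109 over vehicle on the right. Grey bars span the values with each library left out in turn, and filled points are called. On the left every bar lies above 0 and the filled points are Gbp2 at 1.82, Gbp3 at 1.86 and Irgm1 at 1.41, and on the right no point is filled.

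Levels between genes were compared per length, as the deposited FPKM. In RS the order of mean FPKM was Igtp (1.72 ± 0.327, SD, n = 2), Irgm1 (1.45 ± 0.118), Irgm2 (1.39 ± 0.0685), Gbp2 (1.33 ± 0.152), Gbp3 (1.25 ± 0.0564), Gbp7 (1.02 ± 0.0281), Gbp9 (0.985 ± 0.242), Iigp1 (0.700 ± 0.120), Gbp5 (0.358 ± 0.00307) and Gbp6 (0.108 ± 0.108). Neighbours in this order overlapped from Igtp down to Gbp3 and again between Gbp7 and Gbp9, and the other neighbours were apart. In PTS + RS Gbp2 (4.71 ± 1.98 FPKM) and Gbp3 (4.51 ± 1.84 FPKM) came first, ahead of Igtp (4.18 ± 1.66 FPKM) and Irgm1 (3.85 ± 1.12 FPKM). Every neighbouring pair overlapped there except Gbp5 (1.17 ± 0.594 FPKM) and Gbp6 (0.401 ± 0.256 FPKM).

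Of 22 other interferon-inducible GTPases listed, 12 had enough counts to be tested in PTS + RS against RS. The fitted change was above 0 for 10 of these and below 0 for 2 (median log2 fold change 1.51), and 3 were upregulated. Gm5431 had 112 counts over the PTS + RS libraries and 3 over the RS libraries, a ratio of 37.5 with an exact 95% counting interval from 12.5 to 184 (edgeR adjusted p of 0.0115). Mx1, an antiviral dynamin-like GTPase, was at 7.35 and 3.41 CPM at most and least in PTS + RS and between 0.110 and 0.568 CPM in RS, with a log2 fold change of 4.01 (SE 0.650, edgeR adjusted p of 0.0216). 9930111J21Rik2 had a log2 fold change of 1.56 (SE 0.313, edgeR adjusted p of 0.0469).

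The other tested GTPases of this list were not called. Mx2 had a log2 fold change of 2.09 (edgeR adjusted p of 0.0938), Gvin1 one of 2.16 (edgeR adjusted p of 0.0989) and Gm4951 one of 1.47 (edgeR adjusted p of 0.186). Gm12250 had 6 counts over the RS libraries, a ratio of 6.02 with an exact counting interval from 2.51 to 17.5 and an adjusted p of 0.104 in edgeR. Gbp11 had a log2 fold change of 1.41 and 9930111J21Rik1 one of 1.05, both from few counts. Gbp4 was at 0.14 (edgeR adjusted p of 0.903), with all 4 libraries between 2.39 and 4.96 CPM. Tgtp1, an effector like Iigp1, was at -0.53 (SE 0.745, edgeR adjusted p of 0.770), and Irgq, between 104.6 and 123.2 CPM in the 4 libraries, was at -0.21 (edgeR adjusted p of 0.190). Of the other 10 listed genes, 7 had too few counts to be tested and 3 were not matched by symbol. Tgtp2, which was not tested, pointed the other way from Tgtp1. Tgtp2 had 32 and 10 counts in PTS + RS and 8 and 3 in RS, and Tgtp1 had 24 and 3 in PTS + RS and 19 and 20 in RS. Shared sequence was not examined for these other GTPases.

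Upstream of the GTPases, the listed ligands Ifng, Ifnb1 and Ifnl3 were at or near 0, and no other interferon gene was in the list. Ifng had 1 count in 1 of the 4 libraries of the first table, and Ifnb1 and Ifnl3 had 0 in all 4. Of 9 listed ligands and receptors 5 were tested, all with a change above 0 (median 0.61), and 1 was upregulated. This was Il10rb, a receptor chain of interferon-lambda and interleukin-10, at 1.06 (SE 0.216, edgeR adjusted p of 0.0493). Ifngr1, the ligand-binding receptor chain for interferon-gamma, was at 26.1 and 21.1 CPM at most and least in PTS + RS and between 13.9 and 14.1 CPM in RS. Its log2 fold change of 0.75 had an adjusted p of 0.0422 in edgeR and lay below the fold limit. Ifnar2 was at 0.61 (edgeR adjusted p of 0.0744) and Ifngr2 at 0.32 (edgeR adjusted p of 0.303).

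Of 17 genes of interferon signal transduction, all tested, 14 had a change above 0 and 3 passed as upregulated. The median of the list was 0.48 on the log2 scale. Irf8, a factor of myeloid cells, had a log2 fold change of 2.23 (SE 0.176, edgeR adjusted p of 0.00135). Irf7, which amplifies type I interferon, had one of 2.29 (SE 0.314, edgeR adjusted p of 0.0113), and Nlrc5, the transactivator of MHC class I, one of 2.04 (SE 0.382, edgeR adjusted p of 0.0375). Stat2 was at 0.57 (edgeR adjusted p of 0.0473), below the fold limit.

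Among other genes that interferons induce, 12 of the 20 listed type I interferon-stimulated genes were upregulated and all 20 had a change above 0, for a list median of 1.68. Trim30a (2.37, adjusted p = 0.00155), Lgals3bp (2.19, adjusted p = 0.00499), Ifi27l2a (2.51, adjusted p = 0.00897) and Zbp1 (3.35, adjusted p = 0.0173), a sensor of nucleic acids in cell death, had the smallest adjusted p in edgeR. Of 20 interferon-gamma targets other than GTPases 18 were tested, all with a change above 0, and 7 were upregulated (median 1.04). B2m, the light chain of MHC class I, was at 236 and 176 CPM at most and least in PTS + RS and between 52.4 and 60.7 CPM in RS. The log2 fold changes were 1.86 for B2m (adjusted p = 0.00143), 2.86 for the Fc receptor Fcgr1 (adjusted p = 0.00225), 1.48 for H2-D1 (adjusted p = 0.00381) and 1.51 for H2-K1 (adjusted p = 0.00417), all from edgeR.

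Of 8 inflammasome genes on which guanylate-binding proteins act, 7 were tested, all with a change above 0 (median 1.49), and 3 were upregulated. These were Aim2, a DNA sensor, at 1.49 (SE 0.221, edgeR adjusted p of 0.0152), the adaptor Pycard at 1.75 (SE 0.271, edgeR adjusted p of 0.0182) and the pore-forming Gsdmd at 1.51 (SE 0.239, edgeR adjusted p of 0.0200). Casp4, the mouse caspase-11 gene, was at 1.78 (SE 0.551, edgeR adjusted p of 0.152). The 10 autophagy conjugation genes, through which these GTPases are guided to vacuoles, had a median of -0.00339 and 0 were called, with 2 at an unadjusted p under 0.05. Gabarapl2, which was between 66.3 and 67.1 CPM in PTS + RS and between 87.3 and 91.5 CPM in RS, was at -0.42 (SE 0.0754, edgeR adjusted p of 0.0315), below the fold limit. Map1lc3a was at -0.46 (SE 0.126, edgeR adjusted p of 0.113), with both PTS + RS libraries below both RS libraries. Gabarapl1 was at -0.20 (edgeR adjusted p of 0.299) and Map1lc3b at 0.06 (edgeR adjusted p of 0.747).

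Markers of some cell types rose with the GTPases. All 10 microglia markers were upregulated (median 2.03 on the log2 scale), and their summed level was 1261 and 1061 CPM in PTS + RS and 310.1 and 278.6 CPM in RS. The summed level of the 10 GTPases was 133 and 75.9 CPM in PTS + RS and 43.2 and 38.2 CPM in RS. Of 8 astrocyte markers 2 were upregulated, Gfap (2.27, adjusted p = 0.00112) and Aqp4 (1.01, adjusted p = 0.0137, edgeR), with a median of 0.48. Endothelial markers had a median of 0.22, oligodendrocyte markers one of 0.27 and neuron markers one of -0.12, with 0 called in each list. The part of all these cells in the rise of the GTPases was not tested. T and NK cell markers were nearly absent from the PTS + RS and RS libraries. Each of these libraries had 3 to 6 of 10 genes at 0 counts and a sum between 0.993 and 2.10 CPM. Neutrophil markers summed to at most 0.938 CPM in them. Border macrophage markers summed to 28.6 and 13.4 CPM in PTS + RS and to 11.5 and 9.53 CPM in RS, and 0 of the 4 tested were called in edgeR, with 3 at an unadjusted p under 0.05.

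Within PTS + RS the GTPases and the microglia markers did not follow each other in size. The summed level of the GTPases was 1.76 times higher in replicate 1 than in replicate 2 and that of the microglia markers 1.19 times. That of the type I interferon-stimulated genes was 1.71 times higher, that of border macrophage markers 2.13 times and that of choroid plexus markers 11.2 times. The choroid plexus sum was 2524 and 225.0 CPM in PTS + RS and 2747 and 5524 CPM in RS, so it was highest in RS. Their parts in the difference between the PTS + RS libraries were not tested.

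**Figure D4:**
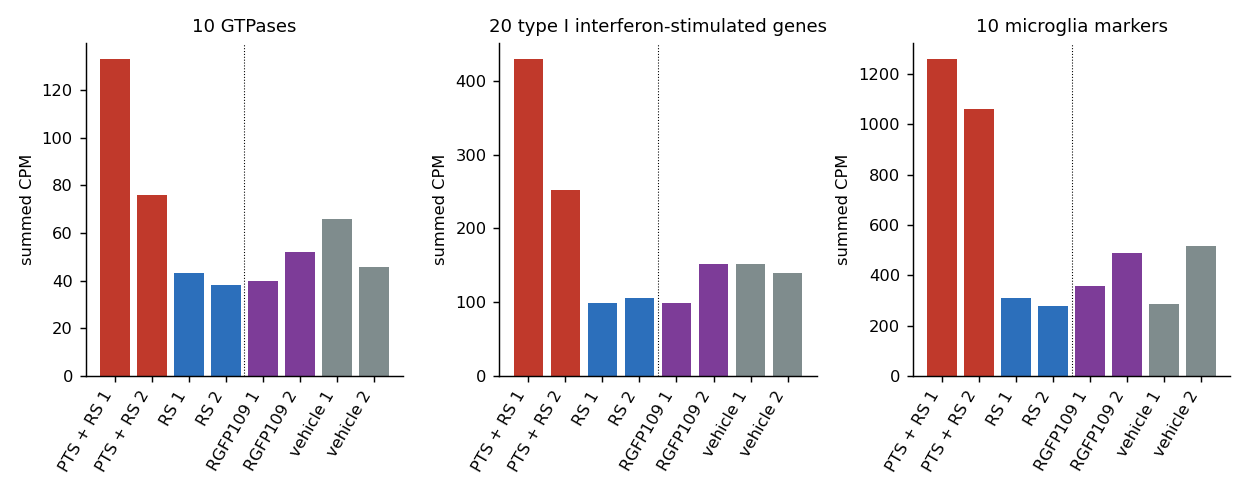
Summed CPM (vertical axes, from 0) of the 10 GTPases, 20 type I interferon-stimulated genes and 10 microglia markers in each library, with a dotted line between the separately normalised tables. PTS + RS replicate 1 exceeds replicate 2 by 1.76 times in the first panel, 1.71 times in the second and 1.19 times in the third, and vehicle replicate 1 is the highest of the second table in the first panel (65.8 CPM) and the lowest of it in the third (286 CPM).

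The second comparison asked what RGFP109 changes in PTS + RS mice. None of the 10 GTPases was called in RGFP109 against vehicle by edgeR's quasi-likelihood test, beside 0% of the 17565 genes tested in either direction. At an unadjusted p under 0.05 the count of higher or lower members was also 0 of 10. Of all 17565 genes 206 were under that level, 88 of them (0.501% of all genes) higher and the rest lower. DESeq2, limma-voom and limma-trend called 0 of the 10 as well. A fitted change below 0 was found for 8 of 10, beside 52.6% of all genes, and one above 0 for 2 of 10, beside 47.4%. The median log2 fold change was -0.25 beside -0.016 over all genes. Without vehicle replicate 1 the median was 0.05, and without RGFP109 replicate 1 it was -0.080. The standard errors of the 10 genes ran from 0.291 to 0.757 in this table.

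The regulators and effectors had the following levels under RGFP109. Irgm1 was at 8.18 and 10.7 CPM with RGFP109 and at 12.9 and 9.13 CPM with vehicle, a log2 fold change of -0.23 (SE 0.302). The libraries overlapped, and the highest was vehicle replicate 1, without which the value was 0.04. Igtp was at 3.23 and 4.53 against 6.09 and 4.46 CPM (-0.44 on the log2 scale, SE 0.367), and Irgm2 was at 4.31 and 5.84 against 7.51 and 4.84 CPM (-0.28, SE 0.373). Without vehicle replicate 1 these values were -0.20 for Igtp and 0.066 for Irgm2. Iigp1 was at 1.78 and 4.07 CPM with RGFP109 and at 3.13 and 2.50 CPM with vehicle (0.06, SE 0.523), with the RGFP109 libraries as the lowest and the highest. Without vehicle replicate 1 the value of Iigp1 was 0.23.

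Of the guanylate-binding proteins, Gbp2 had the most even level, at 5.07 and 5.42 CPM with RGFP109 and at 5.40 and 4.95 CPM with vehicle. Its log2 fold change was 0.02 (SE 0.291). Gbp3 was at 3.62 and 6.26 CPM with RGFP109 and at 8.42 and 5.87 CPM with vehicle (-0.53, SE 0.407), which overlapped. Gbp5 was at 2.92 and 3.83 against 4.78 and 2.23 CPM (-0.05), and Gbp9 at 5.39 and 5.05 against 6.26 and 4.46 CPM (-0.04), both with vehicle libraries on either side. Without vehicle replicate 1 the log2 fold change was 0.079 for Gbp2, -0.25 for Gbp3, 0.59 for Gbp5 and 0.22 for Gbp9.

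Gbp6 and Gbp7 were the members with both RGFP109 libraries below both vehicle libraries, where 13.8% of all genes were so. Gbp6 had 4 and 24 counts with RGFP109 and 42 and 33 with vehicle, a log2 fold change of -1.56 (SE 0.757) with an unadjusted p of 0.0964 and an adjusted p of 1.00 from edgeR. Gbp7 was at 5.07 and 5.37 against 8.87 and 5.49 CPM, a log2 fold change of -0.46 (SE 0.351, unadjusted p = 0.251 from edgeR). In Gbp7 the nearest libraries of the groups were almost level. Without vehicle replicate 1 the values were -1.34 for Gbp6 and -0.078 for Gbp7.

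The direction differed between the tissue labels. In the cortex-labelled pair all 10 GTPases were lower with RGFP109, beside 51.8% of all genes, with a median log2 ratio of -0.78. In the amygdala-labelled pair 8 of 10 were higher, with a median of 0.15, and Gbp6 and Gbp7 were lower. These 2 members were lower in both pairs, as 25.4% of all genes were. The cortex-labelled pair includes vehicle replicate 1, in which the summed level of the 10 GTPases was 65.8 CPM, against 39.8, 52.2 and 45.7 CPM in RGFP109 replicates 1 and 2 and vehicle replicate 2. Its microglia markers summed to 286 CPM, against 357.6, 489.1 and 516 CPM in the same libraries. Each tissue label holds 1 pair, so the difference between them has no replicate check.

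**Figure D5:**
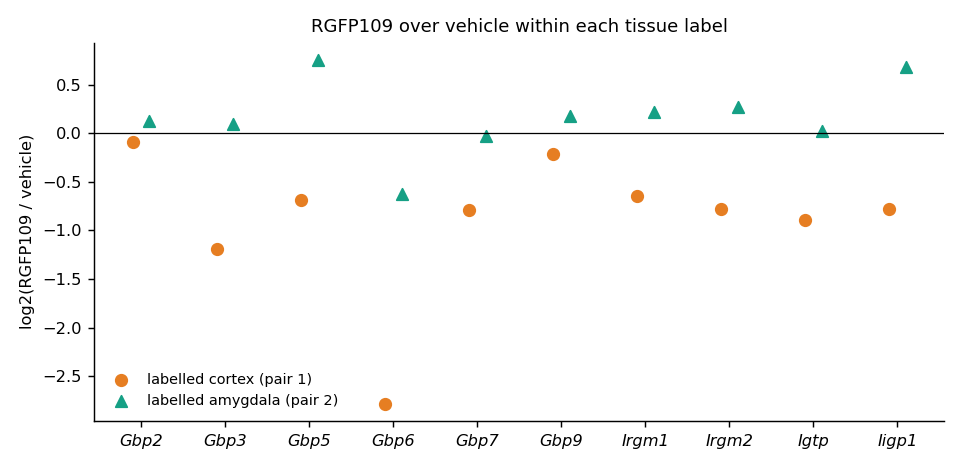
Log2 ratio of RGFP109 over vehicle (vertical axis) for each GTPase within the pair labelled cortex (circles) and the pair labelled amygdala (triangles), from CPM with a prior count of 2. The circles lie between -2.78 and -0.09 and 8 of the 10 triangles lie above 0, up to 0.75 for Gbp5.

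The tissue labels themselves were compared with treatment as a block. By edgeR's quasi-likelihood test 0 of 10 GTPases were called, beside 0% of all genes in either direction. At an unadjusted p under 0.05 there were 0 of 10. Of all 17565 genes 1607 were under that level, 1069 of them (6.09% of all genes) higher and the rest lower. The fitted change was above 0 for 4 of 10 (48.5% of all genes) and below 0 for 6 (51.5%). DESeq2 also called 0 of the 10, beside 0.549% called higher and 0.198% called lower of 28229 genes, without the filter on low counts. The count was 0 of 10 with limma-voom, which called 0 of all genes, and with limma-trend, which called 3 of all genes. The median log2 fold change of amygdala-labelled over cortex-labelled libraries was -0.04. The largest differences were 0.58 for Gbp6 (SE 0.749) and 0.43 for Iigp1 (SE 0.519), both within the error. Over the same libraries the 9 striatum markers had a median of 3.20, and all 9 had an unadjusted p under 0.05.

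Of the 22 other interferon-inducible GTPases, 9 were tested in the second table and 0 were called in RGFP109 against vehicle by edgeR, with 0 at an unadjusted p under 0.05. Their median log2 fold change was -0.29. Mx1 was at -0.45 (SE 0.904) and Gbp4 at -0.29 (SE 0.837). The type I interferon-stimulated genes had a median of -0.18 and the other interferon-gamma targets one of -0.33, with 0 called in either list by edgeR and with 1 of 20 and 0 of 19 at an unadjusted p under 0.05. Without vehicle replicate 1 the medians were -0.12 for 11 other GTPases, -0.023 for the type I interferon-stimulated genes and -0.57 for the other interferon-gamma targets, with 0 called in each and with 0, 1 and 4 at an unadjusted p under 0.05. Hdac3, a target of RGFP109 at the protein level, was between 74.8 and 89.9 CPM with RGFP109 and between 78.0 and 79.7 CPM with vehicle.

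The genes whose pattern over the 8 libraries was most like the mean of the 10 GTPases were Reep3 (Pearson r = 0.994), P4ha3 (0.991), 1810058I24Rik (0.989), Ddx60 (0.985) and Usp18 (0.985), out of 16947 genes tested in both tables. The measure was the correlation of log2 CPM centred within each table, and the 8 libraries share their 2 tables and the high PTS + RS libraries. Ddx60 and Usp18 are interferon-stimulated genes. Usp18 was at 6.95 and 3.53 CPM in PTS + RS, 1.66 and 1.01 CPM in RS, 1.27 and 1.82 CPM with RGFP109 and 2.33 and 1.41 CPM with vehicle. Reep3, at 76.8 and 64.0 CPM in PTS + RS and 50.5 and 47.9 CPM in RS, followed the same order of libraries over a narrower range. Among the GTPases themselves, the correlation of each with the mean of the other 9 ran from 0.785 for Gbp6 and 0.835 for Gbp9 to 0.995 for Igtp.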

How the data were processed

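Libraries were prepared from brain RNA of 8 samples. According to the paper's methods and the submitters' processing notes, STAR 2.4.0 was used by the authors for alignment of the read pairs, to GRCm38, and HTSeq 0.6.1 for counting per gene. They deposited raw counts and FPKM for each library. The deposited FPKM are scaled by gene length and library depth. The label names a directional library kit and the methods another kit, so strand-specific counting is uncertain, and the methods name RefSeq genes although the tables list Ensembl genes. The authors' own columns of log2 fold change, p-value and adjusted p-value were not used, and neither were 8 per-library columns of normalized values. All 28229 genes of the second table were matched to identifiers of the first by coordinates, strand, length, biotype and description.

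Genes were filtered with filterByExpr, normalized by TMM and tested by edgeR's quasi-likelihood test (edgeR 4.0.16, R 4.3.3) within each table, with Benjamini-Hochberg adjustment over 17581 and 17565 genes. The standard error was taken as the fold change divided by the root of the F statistic. Alternatives were DESeq2 1.42.0, limma 3.58.1 (voom on counts, trend on log2(FPKM + 1), pseudocount 1), DESeq2 size factors, no filter, the replicate number as a block and each library left out. Log2 ratios between libraries used a prior count of 2. Scripts were tested on simulated data, first with gene-wise and then, after an excess of false calls by edgeR, also with trended dispersions. Over 10 draws of each the mean share of false calls was above the nominal share with gene-wise dispersions in both designs and near it with trended ones. Summaries and plots used Python 3.11.15, pandas 2.3.3 and matplotlib 3.10.9.

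The 10 genes and all lists were chosen with earlier results of these data known, from general knowledge. Named by rule were the 10 genes, every tested gene among the other GTPases, up to 4 genes of each other list by adjusted p in PTS + RS against RS (the 2 highest in level where none was called) and the 5 most alike in pattern. Genes outside the rule are said to be so or serve as checks of tissue and target. In RGFP109 and vehicle the replicate number is the labelled tissue, so samples were paired by label, with a correlation of the replicates' deviations of 0.299 over genes. No pair of replicates agreed within counting error (chi-square per gene from 4.65 to 76.6).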

Additional observations from a re-analysis of the deposited data

Results flagged for a closer look

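For 8 of the 10 GTPases RGFP109 over vehicle pointed down in the cortex-labelled pair and up in the amygdala-labelled pair, where 51.4% of all genes tested had opposite signs. The difference of the log2 ratios, amygdala-labelled minus cortex-labelled, was 0.22 for Gbp2, 1.29 for Gbp3, 1.44 for Gbp5, 0.39 for Gbp9, 0.87 for Irgm1, 1.05 for Irgm2, 0.91 for Igtp and 1.46 for Iigp1. These differences were not tested, since each label holds 1 pair. The cortex-labelled pair includes vehicle replicate 1, the library low in Neurod6 and high in Cdhr1. The part of that library in the difference was not tested.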

How the results depend on the processing

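For PTS + RS against RS, the count of 3 called GTPases (373 of all genes called higher) became 7 with DESeq2 (397), 1 with limma-voom (315, Irgm1 kept, Gbp2 and Gbp3 lost), 0 with limma-trend on log2(FPKM + 1) (184) and 8 with no filter on low counts (604). With each library left out in turn it ran from 3 to 9 (308 to 626 of all genes), and the median log2 fold change from 0.94 (without PTS + RS replicate 1) to 1.92 (without PTS + RS replicate 2). On the FPKM scale that median was 0.76 by limma-trend, since the added 1 shrinks changes of genes near 1 FPKM. Other causes were not tested. The replicate number shared by PTS + RS and RS says nothing of a common mouse or day, and the correlation of the replicates' deviations was 0.035 over 17581 genes. With it as a block 6 GTPases were called (443 of all genes), with a median of 1.49. For RGFP109 against vehicle the block gave 0 called and a median of -0.24, and it changed no call there. Without 1 library the median ran from -0.52 to 0.05. No member changed sign in the first comparison under any of these alternatives. In RGFP109 against vehicle, 13 of 100 values reversed their sign, all uncalled. These were Gbp5 with limma-voom (0.060) and with the replicate block (0.031), Iigp1 with the replicate block (-0.031), and 10 values with 1 library left out. Over the 4 libraries left out in turn, Gbp5 ran from -0.49 (vehicle replicate 2) to 0.59 (vehicle replicate 1), with 0.13 without RGFP109 replicate 1. Iigp1 ran from -0.66 to 0.53, with -0.08 without vehicle replicate 2, Gbp2 from -0.032 to 0.079, Gbp9 from -0.25 to 0.22, Irgm1 from -0.44 to 0.040 and Irgm2 from -0.55 to 0.066, the last 3 turning positive without vehicle replicate 1 (Gbp9 also without RGFP109 replicate 2, at 0.01). Between tissue labels Igtp reversed with limma-voom (-0.024) and with no treatment block (-0.054), and leaving out a library was not run because no residual degrees of freedom would remain. Where a library was left out, the lone library of its group was assumed to vary like the other group. Depth limits Gbp6 most, with 3 to 60 counts per library.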
